A study of Caenorhabditis elegans with 40 samples.

Results

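Gene expression of age-1 mutant worms was compared with that of wild type worms, both on empty vector, the control treatment for RNA interference (RNAi). Sequencing libraries were made from whole Caenorhabditis elegans on day 1 of adulthood, and 8 of the 40 libraries in the series entered this comparison, 4 for each genotype. The age-1 libraries came from strain TJ1052, which carries the allele age-1(hx546), and the wild type libraries came from strain N2. The other 32 libraries, from worms on RNAi against repo-1 from hatching and from eat-2(ad1116), raga-1(ok386) and clk-1(qm30) mutants, were used for the shared estimate of the spread, for the same contrast on RNAi and for values set beside those of age-1. Libraries are numbered 1 to 4 in each group, and that number is also the labelled batch, so every batch holds both genotypes. Whether the libraries of a group came from separate cultures is not stated, so the spread behind the p-values may be technical. One mutant strain carried the allele, so effects of hx546 and of other differences between the strains cannot be told apart.

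In worms, insulin-like peptides bind the receptor DAF-2, which activates a phosphoinositide 3-kinase whose catalytic subunit is AGE-1. The lipid made by this kinase activates PDK-1 and the kinases AKT-1 and AKT-2, which keep the transcription factor DAF-16 out of the nucleus. Reduced signalling lets DAF-16 enter the nucleus, where it raises genes of stress resistance and metabolism, and such mutants live long. A second group of genes falls in these mutants, partly through the factor PQM-1.

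The age-1 libraries held 14.8 to 24.9 M reads in genes and the wild type libraries 14.8 to 22.4 M reads. Correlations of log2 values were 0.983 to 0.991 within age-1, 0.985 to 0.991 within wild type and 0.974 to 0.987 between them. On the first principal component of these 8 libraries, which held 32.5% of the variance, the age-1 libraries lay at -35.7, -28.1, -7.42 and -13.4 in the order of their numbers. The wild type libraries lay between 17.5 and 25.8 on the same axis. Libraries 1 and 2 of age-1 thus stood apart from libraries 3 and 4, and the library names carry 1 code for batches 1 and 2 and another for batches 3 and 4. All of 143 named genes called on empty vector had the same sign in both pairs of batches. They were selected as called on these same libraries, so equal signs were largely fixed by that choice. Among them, 49 had log2 fold changes that differed by more than 1.5 times between the pairs. Of these, 32 were larger in batches 1 and 2 and 17 in batches 3 and 4, and the values of both pairs are given below. Libraries were made from a kit that keeps the strand, but whether reads were counted by strand is not given in the sources used here, so overlapping genes may share reads. Because whole animals were sequenced, fewer cells of a type and less RNA per cell cannot be told apart.

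The age-1 transcript itself did not differ detectably between the genotypes. The gene lies on chromosome II at 11519328 to 11527054 on the reverse strand (WBcel235). It had 2271, 2413, 2642 and 2597 normalized counts in the 4 age-1 libraries, against 2618, 2917, 2410 and 2590 in wild type. The groups overlapped, the age-1 mean was 94.2% of the wild type mean, and the log2 fold change of -0.09 ± 0.11 (SE) had an adjusted p of 0.724 in limma. The transcript level therefore does not tell the genotypes apart. The transcript of repo-1, the target of the RNAi used elsewhere in the series, was likewise at 96.0% of wild type on empty vector (adjusted p = 0.766, limma).

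Among the components of the insulin pathway, few transcripts differed between the genotypes. Of 32 measured pathway genes, 2 were higher and 1 was lower in age-1 at an adjusted p under 0.05, and their median log2 fold change was 0.0034. Over all 12327 genes tested, 4.76% were called higher and 3.72% lower, with a median log2 fold change of -0.02. The pathway's share of called genes was thus near that background.

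The gene akt-2 encodes 1 of the AKT kinases and rose most in the pathway. It had 263, 244, 243 and 238 normalized counts in age-1 libraries and 147, 128, 111 and 136 in wild type, so that the groups lay well apart. The log2 fold change was 0.92 ± 0.11 (adjusted p = 2.68e-07, limma). The gene ist-1, which encodes an insulin receptor substrate homolog, had 178, 187, 172 and 145 normalized counts in age-1 against 122, 99.5, 125 and 97.4 in wild type. These ranges did not overlap either, and its log2 fold change was 0.62 ± 0.12 (adjusted p = 0.000373, limma).

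The gene sgk-1 encodes the serum- and glucocorticoid-regulated kinase that acts beside AKT. It fell by 0.34 ± 0.10 on the log2 scale (adjusted p = 0.0333, limma), with 199, 240, 283 and 242 normalized counts in age-1 and 274, 311, 278 and 356 in wild type. Library 3 of age-1 lay above the 2 lowest wild type libraries, and the call was lost without library 1, 2 or 4 of age-1 or without library 2 or 4 of wild type, with adjusted p-values up to 0.203. It was also lost under quantile normalization and in edgeR with TMM scaling.

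The other central members did not pass the test. The receptor gene daf-2 averaged 4209 ± 173 normalized counts in age-1 and 3838 ± 188 in wild type (SD, n = 4 each), with an adjusted p of 0.0552 in limma; it passed with the batch number as a block, under quantile normalization, in edgeR with TMM scaling and in DESeq2, and without library 3 of age-1 or library 2 of wild type (lowest adjusted p 0.0227 without a library). The log2 fold changes were -0.07 for aap-1, which encodes the adaptor subunit of the kinase, -0.01 for pdk-1 and 0.07 for akt-1. For daf-16, the transcription factor of the pathway, the log2 fold change was -0.12 ± 0.05 (adjusted p = 0.208, limma). Among 16 measured genes of insulin-like peptides, 2 were higher in age-1 and none was lower. The first, ins-27, averaged 58.1 ± 5.22 normalized counts in age-1 and 27.2 ± 7.73 in wild type (SD, n = 4 each), a log2 fold change of 1.1 (adjusted p = 0.000318, limma). The second, ins-24, had a log2 fold change of 0.65, and its call was lost without any single library other than library 3 of wild type (adjusted p up to 0.161, limma).

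**Figure D1:**
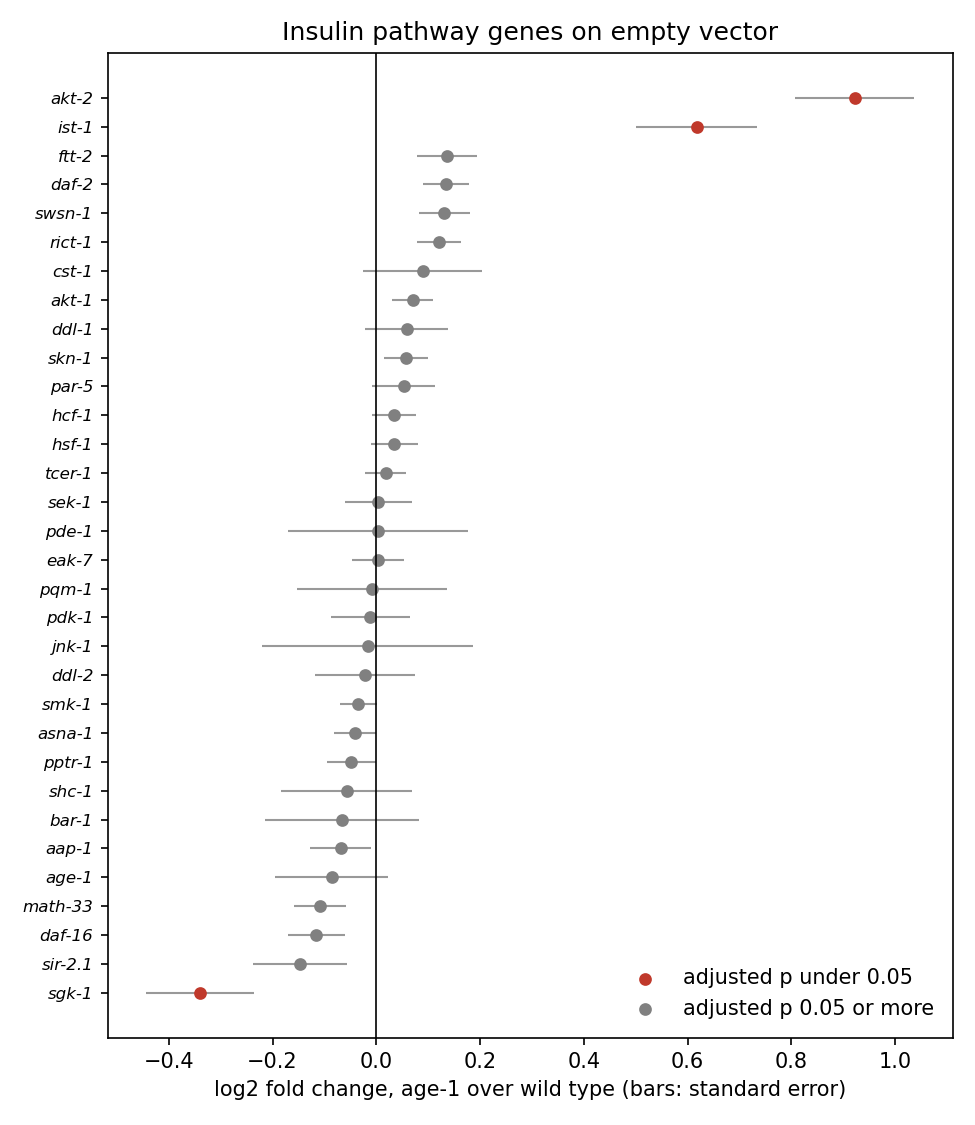
Log2 fold changes of the 32 measured insulin pathway genes, age-1 over wild type on empty vector, with bars of 1 standard error and n = 4 libraries a group. Red points mark akt-2 and ist-1, which were higher, and sgk-1, which was lower, while the grey points of the other genes lie close to 0, the farthest at -0.147.

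Over the whole transcriptome the difference was moderate in extent. Of 12327 genes tested, 1045 (8.48%) were called, 587 higher and 458 lower in age-1, and 2627 had an unadjusted p under 0.05. Of the called genes, 108 were over 2-fold higher and 96 over 2-fold lower. In 943 genes (7.65%) all 4 age-1 libraries lay above all 4 wild type libraries, and in 892 (7.24%) all lay below. The count of calls depended on the libraries, as it was 590, 595, 1065 and 561 without batch 1, 2, 3 and 4, and 653 without library 1 of age-1 alone. Batches 1 and 2 alone gave 711 calls and batches 3 and 4 alone gave 453. By chromosome, called genes made up 6.43% of tested genes on I, 8.38% on II, 6.90% on III, 8.52% on IV, 10.7% on V and 9.91% on X. Within 1 Mb of age-1 on chromosome II, 17 of 295 tested genes were called (5.76%), a lower share than over all genes, and none of the 12 mitochondrial genes was called.

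Most measured genes on a list of those known to be induced by DAF-16 were higher in age-1. Of 52 measured genes on this list, 35 were called higher and none lower, and the median log2 fold change was 0.63. That compares with 4.76% of all genes called higher and a median of -0.02 over all genes. Within batches 1 and 2 the list had 30 members called higher with a median of 0.68, and within batches 3 and 4 it had 27 with a median of 0.55. The list was drawn from general knowledge of daf-2 and age-1 mutants, so its direction follows from how it was made. It was also chosen with earlier results of these data known, so its share of called genes is not an independent test. The members cover iron storage, metal binding, antioxidant enzymes, small heat shock proteins, trehalose synthesis and fat metabolism.

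The ferritin heavy chain gene ftn-1, which stores iron, had the highest fold change of the list. It lies on chromosome V at 7546468 to 7547579 on the reverse strand and had 350, 202, 66.0 and 75.9 normalized counts in age-1 libraries, against 13.8, 10.1, 12.08 and 8.74 in wild type. The groups were far apart, but age-1 libraries 1 and 2 were higher than 3 and 4. Its change was 3.52 ± 0.40 on the log2 scale (adjusted p = 3.86e-08, limma), with 4.38 in batches 1 and 2 alone and 2.67 in batches 3 and 4 alone.

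The gene dod-3, named as a gene downstream of DAF-16, showed the same split. It had 377, 293, 101 and 143 normalized counts in age-1 and 20.7, 31.2, 24.2 and 25.0 in wild type. Its log2 fold change was 2.95 ± 0.30 (adjusted p = 2.93e-09, limma), with 3.66 in batches 1 and 2 alone and 2.25 in batches 3 and 4 alone.

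The metallothionein gene mtl-1 was more even. It had 123.5, 130, 119 and 117 normalized counts in age-1 libraries and 18.1, 18.5, 12.08 and 17.5 in wild type, a log2 fold change of 2.83 ± 0.34 (adjusted p = 1.48e-07, limma). The gene nnt-1 encodes nicotinamide nucleotide transhydrogenase, which makes NADPH in mitochondria. Its libraries held 181, 170, 162 and 200.5 normalized counts in age-1 and 23.2, 35.4, 42.8 and 30.0 in wild type, with a log2 fold change of 2.43 ± 0.18 (adjusted p = 1.67e-12, limma). In both genes the lowest age-1 library was several times the highest wild type library.

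The gene lea-1 encodes a late embryogenesis abundant protein of the kind that guards cells against drying. It lies on chromosome V at 10011923 to 10028168 on the forward strand and was among the 2 genes with the lowest adjusted p of all genes. Its 4 age-1 libraries held 22118, 22630, 23599 and 22325 normalized counts and its wild type libraries 4923, 5476, 4877 and 5417. On the log2 scale the change was 2.13 ± 0.07 (adjusted p = 2.55e-22, limma), and it was 2.11 in batches 1 and 2 alone and 2.16 in batches 3 and 4 alone.

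**Figure D2:**
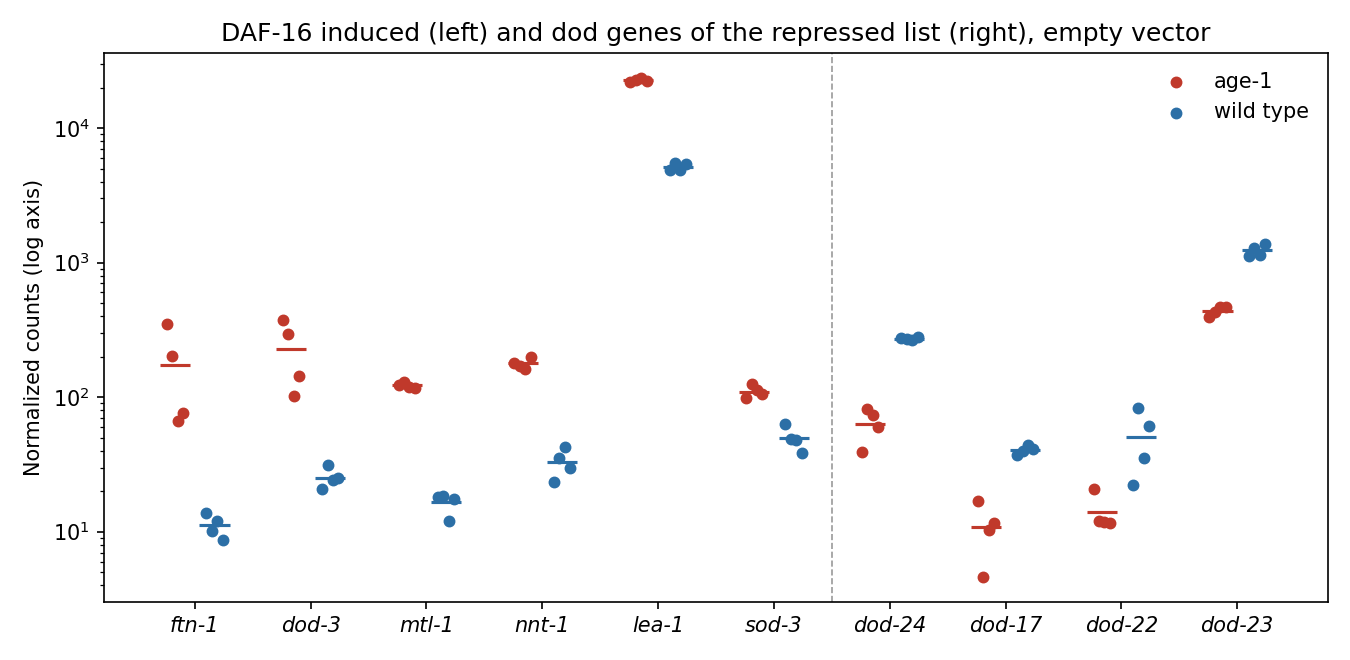
Normalized counts on a log axis in each of the 4 age-1 libraries (red) and 4 wild type libraries (blue) on empty vector, with a line at each mean. The 6 genes on the left come from the DAF-16 induced list and are higher in every age-1 library than in any wild type library. The 4 dod genes on the right come from the repressed list and are lower in every age-1 library than in any wild type library.

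Most superoxide dismutase and catalase genes were also higher in age-1. Of 7 measured, 5 were higher and none lower, with a median log2 fold change of 0.63, where 4.76% of all genes were called higher. Of the 5, 4 are also on the DAF-16 induced list. The mitochondrial manganese superoxide dismutase gene sod-3 had 98.8, 124, 112 and 105 normalized counts in age-1 against 62.8, 48.9, 48.3 and 38.7 in wild type, a log2 fold change of 1.15 ± 0.17 (adjusted p = 8.75e-06, limma). The 3 adjacent catalase genes had log2 fold changes of 0.68 for ctl-1, 0.63 for ctl-2 and 1.047 for ctl-3, with single-gene values uncertain because their sequences are nearly alike. The cytosolic enzyme gene sod-1 rose less, at 0.27 ± 0.05 (adjusted p = 0.000212, limma). The other mitochondrial manganese enzyme, sod-2, averaged 1606 ± 78.3 normalized counts in age-1 and 1471 ± 28.9 in wild type (SD, n = 4 each) with an adjusted p of 0.0842 in limma, and it passed without library 3 of age-1 (adjusted p = 0.0380). For sod-4, an extracellular form, the log2 fold change was -0.14 with an adjusted p of 0.624. Among 18 measured genes of peroxiredoxins and the glutathione system, only 2 were higher and none lower, with a median of 0.06. Of these 18, 6 had a negative log2 fold change.

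Small heat shock proteins, which hold unfolded proteins in solution, were split. Of 10 measured, 3 were higher and none lower, with a list median of -0.17. For this and the other lists of this paragraph, the shares over all genes were 4.76% called higher and 3.72% lower. The embryonic form sip-1 averaged 41566 ± 1231 normalized counts in age-1 and 24139 ± 1629 in wild type (SD, n = 4 each), a log2 fold change of 0.79 ± 0.06 (adjusted p = 7.91e-12, limma). The others were hsp-25 with a log2 fold change of 0.29 and hsp-12.3 with 1.01. Both sip-1 and hsp-12.3 are also on the DAF-16 induced list. The call of hsp-12.3 was lost without library 1 or 4 of age-1 or library 2 or 4 of wild type, with adjusted p-values up to 0.0844 in limma. The heat-inducible hsp-16.11 had 62.4, 72.8, 88.7 and 60.4 normalized counts in age-1 and 157, 103, 183 and 131 in wild type. All 4 age-1 libraries lay below wild type, yet the adjusted p was 0.351 for a log2 fold change of -0.99 ± 0.59. With the spread estimated from the 8 compared libraries only, it passed the test (adjusted p = 0.00948, limma). The near-identical copies of this family share reads, and hsp-16.2, at 6.77 ± 3.87 normalized counts in age-1 and 15.1 ± 7.04 in wild type (SD, n = 4 each), also did not pass (adjusted p = 0.425, limma). Among 31 chaperones of the larger families, only the endoplasmic reticulum chaperone gene enpl-1 was called, with a log2 fold change of 0.16 ± 0.04 (adjusted p = 0.00292, limma). Of 32 glutathione S-transferases, enzymes that attach glutathione to toxic compounds, 9 were higher and none lower, with a median of 0.18. The largest was gst-29, at 41.8 ± 10.4 normalized counts in age-1 and 9.78 ± 2.19 in wild type (SD, n = 4 each), a log2 fold change of 1.99 ± 0.31 (adjusted p = 2.32e-05, limma). The oxidative stress reporter gene gst-4 had a log2 fold change of 0.69 (adjusted p = 0.00351, limma). It is 1 of 2 called transferase genes that are also on the DAF-16 induced list.

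Genes known to fall in insulin pathway mutants moved less uniformly. Of 25 measured genes of the DAF-16 repressed list, 10 were lower, 3 were higher and the median log2 fold change was -0.36, against 3.72% of all genes called lower. Its within-batch medians were -0.41 for batches 1 and 2 and -0.16 for batches 3 and 4. The largest fall of a called member was that of dod-24, which encodes a CUB-like domain protein of the intestine, with 39.0, 81.1, 74.1 and 59.6 normalized counts in age-1 and 275, 269, 265 and 282 in wild type. This was a log2 fold change of -2.14 ± 0.32 (adjusted p = 1.15e-05, limma). The log2 fold changes of other dod genes of the list were -1.92 for dod-17, -1.65 for dod-22, -1.48 for dod-23 and -0.88 for dod-19. The last was named after its values were seen. Each of these 4 genes had an adjusted p under 0.001 in limma. The remaining dod genes of the list did not pass the test, at 0.06 and -1.80 (adjusted p = 0.9 and 0.304, limma). For dod-19 the value was -0.54 in batches 1 and 2 alone, where the adjusted p was 0.0929, and -1.22 in batches 3 and 4 alone (limma). The gene dod-22 was low, with 20.8, 11.98, 11.7 and 11.6 normalized counts in age-1 and 22.4, 83.5, 35.1 and 61.2 in wild type, where library 1 lay just above the highest age-1 library.

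The 3 members that were higher go against the list's name. They were the cysteine protease gene cpr-1, the aspartyl protease gene asp-3 and the guanylyl cyclase gene gcy-18, with log2 fold changes of 0.53, 0.26 and 0.96. In batches 1 and 2 alone and batches 3 and 4 alone these were 0.25 and 0.80 for cpr-1 and 0.70 and 1.21 for gcy-18. The gene gcy-18 was named after its values were seen. The calls were lost for cpr-1 without library 3 or 4 of age-1 or library 1 or 3 of wild type (adjusted p up to 0.197, limma). They were lost for asp-3 without library 1 or 3 of either genotype (up to 0.0856) and for gcy-18 without library 3 of wild type (0.0579). Another aspartyl protease gene, asp-8, rose more firmly, at 451 ± 69.5 normalized counts in age-1 and 231 ± 22.2 in wild type (SD, n = 4 each), a log2 fold change of 0.95 ± 0.11 (adjusted p = 6.32e-08, limma).

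Lists of central carbon metabolism held more called rises than falls, mostly small ones. Of 21 measured genes of gluconeogenesis, the glyoxylate shunt and trehalose, 9 were higher and 1 was lower (2 lower with the batch number as a block), with a median of 0.15, where 4.76% of all genes were called higher. Of these called genes, icl-1, tps-1 and tps-2 are also on the DAF-16 induced list, which was chosen for that direction. The gene icl-1, which encodes the glyoxylate enzyme that lets worms turn fat into sugar, had 6904, 5691, 4840 and 4585 normalized counts in age-1 and 2599, 3928, 2679 and 3418 in wild type. Its ranges did not overlap and its log2 fold change was 0.81 ± 0.17 (adjusted p = 0.00100, limma), though the call was lost without batch 1. In batches 1 and 2 alone it was 0.97 and in batches 3 and 4 alone 0.64. The 2 genes of phosphoenolpyruvate carboxykinase, the entry step of gluconeogenesis, also rose. On the log2 scale they rose by 0.50 ± 0.09 for pck-1 (adjusted p = 9.26e-05, limma) and 0.46 ± 0.04 for pck-2 (adjusted p = 1.05e-11, limma). Trehalose, a sugar that protects against stress, is made by trehalose phosphate synthase, whose gene tps-2 rose by 0.46 ± 0.10 on the log2 scale (adjusted p = 0.00175, limma). The lower member was tre-2, which encodes a trehalase that breaks the sugar down. It was named after its values were seen, and it averaged 982 ± 70.5 normalized counts in age-1 and 1277 ± 103 in wild type (SD, n = 4 each; log2 fold change -0.38, adjusted p = 5.89e-05, limma).

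Of 21 glycolysis genes, 9 were higher and none lower, with a median of 0.15, where 4.76% of all genes were called higher. The largest were the glyceraldehyde phosphate dehydrogenase genes gpd-2 and gpd-3, at log2 fold changes of 0.54 ± 0.06 and 0.47 ± 0.06, which share nearly all their sequence and cannot be read apart. Both are on the DAF-16 induced list as well. Smaller rises were seen for pyk-2, a pyruvate kinase gene, at 0.27 and for ipgm-1, a phosphoglycerate mutase gene, at 0.21. Of 23 genes of the tricarboxylic acid cycle, 6 were higher and none lower, with a median of 0.09. Among them were the malate dehydrogenase gene mdh-1, counted in the gluconeogenesis list too, at 0.25 (adjusted p = 0.00343, limma) and the aconitase gene aco-2, named after its values were seen, at 0.18.

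Lists of fat metabolism held more called rises than falls. Of 30 genes of lipases and lipid droplets, 10 were higher and 2 lower, with a median of 0.07, where 4.76% of all genes were called higher and 3.72% lower. The 2 lower genes were thus near the background. The lysosomal acid lipase gene lipl-1 had 462, 430, 570 and 365 normalized counts in age-1 and 70.6, 222, 85.7 and 272 in wild type. Wild type libraries 1 and 3 were the lowest, and the log2 fold change was 1.70 ± 0.31 (adjusted p = 0.000186, limma). Its relative lipl-2 had a log2 fold change of 1.297 (0.93 in batches 1 and 2 alone and 1.66 in batches 3 and 4 alone), and far-3, which encodes a secreted fatty acid and retinol binding protein, had one of 1.52. The 2 lower genes, hosl-1, a hormone-sensitive lipase homolog, and far-1 were named after their values were seen. Their log2 fold changes were -0.30 and -0.18, and their calls were lost without 3 and 5 of the 8 libraries, one at a time (adjusted p up to 0.0679 and 0.105, limma). For hosl-1 these were library 1 of age-1 and libraries 2 and 3 of wild type, and for far-1 libraries 2, 3 and 4 of age-1 and 2 and 3 of wild type.

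Of 47 genes of fatty acid activation and beta oxidation, 10 were higher and 2 lower, with a median of 0.06, and the lower share was again near the background. The acyl-CoA synthetase gene acs-3 had 244, 261, 203 and 215 normalized counts in age-1 and 101, 97.0, 104 and 88.6 in wild type, a log2 fold change of 1.23 ± 0.14 (adjusted p = 3.21e-08, limma). The peroxisomal acyl-CoA oxidase gene acox-1.4, whose relatives shorten the side chains of ascaroside pheromones, had a log2 fold change of 0.98 ± 0.11 (adjusted p = 7.09e-08, limma). The lower members were acdh-2, an acyl-CoA dehydrogenase gene, at -1.03 ± 0.19 and acs-20, named after its values were seen, at -0.56 ± 0.11. For acdh-2 the value was -1.47 in batches 1 and 2 alone and -0.59 in batches 3 and 4 alone, where the adjusted p was 0.124 in limma. Of 23 desaturases and elongases, 2 were higher and 2 lower. The gene fat-2, which encodes the desaturase that makes linoleic acid, averaged 6886 ± 142 normalized counts in age-1 and 5129 ± 338 in wild type (SD, n = 4 each; log2 fold change 0.43, adjusted p = 5.91e-06, limma). The palmitate desaturase gene fat-5 had a log2 fold change of 0.57 and the elongase genes elo-5 and elo-3 had values of -0.45 and -0.33. In batches 1 and 2 alone and batches 3 and 4 alone these were -0.59 and -0.32 for elo-5 and -0.51 and -0.15 for elo-3. The call of fat-5 was lost without library 2 of age-1 (adjusted p = 0.0598, limma), that of elo-5 without library 1 or 2 of age-1 or 1 of wild type (up to 0.0744), and that of elo-3 without library 1 or 2 of age-1 or 1 or 4 of wild type (up to 0.127).

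The methionine cycle makes the methyl donor S-adenosylmethionine. Of 16 measured genes of its list, 6 were lower, none was higher and 10 did not pass the test, with a median of -0.18, where 3.72% of all genes were called lower. The log2 fold changes of the list ran from -1.32 to 1.297, of which 4 were positive, and 3 members were lower on RNAi. The S-adenosylmethionine synthetase gene sams-1 had 3048, 3352, 3565 and 3869 normalized counts in age-1 and 5695, 5081, 5935 and 4901 in wild type, with no overlap and a log2 fold change of -0.64 ± 0.09 (adjusted p = 1.35e-06, limma). The genes cbs-1 and cth-1, of the transsulfuration branch that turns homocysteine into cysteine, had log2 fold changes of -0.50 and -0.51, the second at -0.62 in batches 1 and 2 alone and -0.40 in batches 3 and 4 alone. The gene metr-1, which encodes methionine synthase and was named after its values were seen, had one of -0.18 (adjusted p = 0.00314, limma). Of 14 genes of propionate breakdown, 4 were higher and 2 lower, of which metr-1 is also on the methionine list. The shares over all genes were 4.76% called higher and 3.72% lower. The list median was -0.06, and 10 of the 14 had a negative log2 fold change. On the vitamin B12 dependent route, pcca-1 and pccb-1, the subunits of propionyl-CoA carboxylase, were higher, at 0.25 and 0.32. The next enzymes of that route, mce-1 and mmcm-1, had log2 fold changes of 0.38 and 0.17, and mmcm-1 was named after its values were seen. On the shunt used when the vitamin is short, hphd-1 had a log2 fold change of -0.28 (-0.45 in batches 1 and 2 alone and -0.11 in batches 3 and 4 alone), a call lost without library 2 of age-1 (adjusted p = 0.0546, limma).

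**Figure D3:**
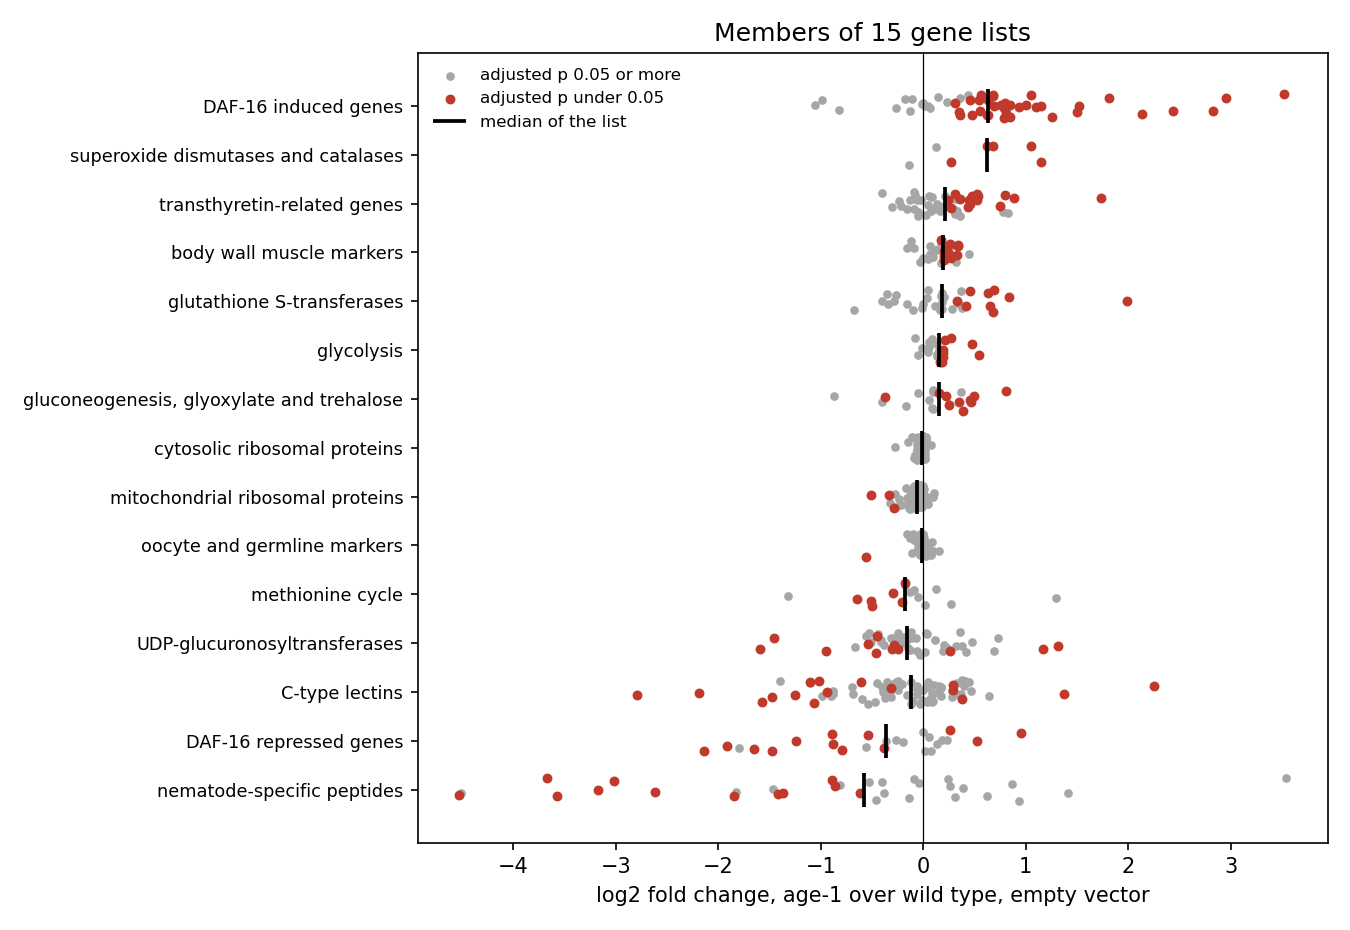
Log2 fold changes, age-1 over wild type on empty vector, of the measured members of 15 gene lists, 1 point a gene, with the list median as a black bar. Red points have an adjusted p under 0.05. The DAF-16 induced genes and the superoxide dismutases and catalases have medians of 0.63, the ribosomal proteins lie near 0, and the DAF-16 repressed genes and nematode-specific peptides have medians of -0.36 and -0.57.

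Few genes of the translation machinery were called. None of 80 cytosolic ribosomal protein genes was, with a median of -0.02, the same as over all genes. Of the 80, 64 had a negative log2 fold change, and the summed levels of that list overlapped. Counts of signs in this paragraph have no share over all genes beside them. Summed levels also lay apart in many lists of other kinds, among them glycolysis, glutathione S-transferases and UDP-glucuronosyltransferases. A gap between summed levels is thus not particular to the lists of this paragraph. Of 67 mitochondrial ribosomal protein genes, 3 were lower and none higher, near the 3.72% of all genes called lower. Of the 67, 59 had a negative log2 fold change, with a list median of -0.07. The list's summed level was 2207 to 2271 per M reads in age-1 against 2347 to 2394 in wild type. The called members were mrpl-23 at -0.51 (-0.70 in batches 1 and 2 alone and -0.33 in batches 3 and 4 alone), mrpl-53 at -0.33 and mrpl-9 at -0.29, and mrpl-9 was lost without library 4 of wild type (adjusted p = 0.0556, limma). Among 40 translation factors, eif-2A and eif-3.C had log2 fold changes of -0.13 and -0.12, and among 31 aminoacyl-tRNA synthetases the valine enzyme vars-1 had -0.25. Of the 31 synthetases 24 were negative, and their summed level was 4865 to 5016 per M reads in age-1 against 5028 to 5255 in wild type, with no overlap. The call of eif-2A was lost without any 1 of 6 of the 8 libraries, all but library 4 of age-1 and library 1 of wild type (adjusted p up to 0.0955, limma). The call of eif-3.C was lost without library 1 or 2 of age-1 or 1 or 4 of wild type (up to 0.139), and that of vars-1 without library 1, 2 or 4 of age-1 or 1 or 4 of wild type (up to 0.198). The call of vars-1 was also lost with the batch number as a block. Of 67 spliceosome genes, only hrpf-1 was called, with a log2 fold change of 0.16, and its call was lost without library 2 of age-1 or 3 of wild type (adjusted p up to 0.0591, limma). No gene of the 32 measured proteasome subunits was called.

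Yolk protein genes were at wild type level. Vitellogenins carry yolk lipid into oocytes and were the most abundant of the lists, at 141400 to 155200 per M reads in age-1 and 148500 to 158100 in wild type. None of the 6 was called, and their log2 fold changes lay between -0.21 for vit-1 and 0.09 for vit-6, with adjusted p-values of 0.386 and 0.626 in limma. The vit-3, vit-4 and vit-5 genes are close copies, so their single values are uncertain. The 48 oocyte and germline markers had a median of -0.01, and only oma-2, which encodes an RNA-binding protein of maturing oocytes, was called, while with the batch block 1 other member was called higher. It had 7092, 7410, 6968 and 7401 normalized counts in age-1 and 10383, 10658, 10431 and 10996 in wild type, a log2 fold change of -0.56 ± 0.04 (adjusted p = 9.56e-12, limma). The groups were tight and did not overlap. Among 23 sperm markers only the kinase gene spe-6 was called, at 0.71, and none of 30 major sperm protein genes was.

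Several body wall muscle markers were higher in age-1, by small amounts. Of 33 measured, 12 were higher and none lower, with a median of 0.20, where 4.76% of all genes were called higher. Their summed level was 12780 to 14350 per M reads in age-1 and 10910 to 12610 in wild type. The heavy chain myosin gene myo-3 averaged 2930 ± 234 normalized counts in age-1 and 2325 ± 339 in wild type (SD, n = 4 each), and its call was lost without library 1 of age-1 or library 4 of wild type (adjusted p up to 0.0684, limma). Other members were the calponin gene cpn-3 at 0.34 (adjusted p = 0.000300, limma), the troponin I gene tni-3 at 0.32 and the cofilin gene unc-60 at 0.27. With fewer libraries the count fell, to 3 in batches 1 and 2 and 3 in batches 3 and 4, while the medians were 0.20 and 0.17. Calls over all genes also fell, from 1045 to 711 and 453 in the same order.

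The other tissues had few called markers, and their summed levels in the 2 genotypes overlapped except for the gonad sheath and uterus list, at 1254 to 1280 per M reads in age-1 and 1134 to 1170 in wild type. Most members of that list did not share this direction. Of 14 measured, 8 had a negative log2 fold change and 6 a positive one, with a median of -0.10. Of 26 hypodermis markers none was called. In the pharynx list, phat-3, named as a pharyngeal gland toxin-related gene, had 24.7, 31.3, 37.4 and 22.5 normalized counts in age-1 and 107, 99.5, 110 and 92.4 in wild type, a log2 fold change of -1.81 ± 0.17 (adjusted p = 1.08e-09, limma). In the neuron list the neuropeptide gene flp-5 was lower, at -0.56. In the gonad sheath and uterus list the cadherin gene cdh-3 was lower, at -0.74, and the filamin gene fln-1 higher, at 0.18. The intestine list was divided, with the esterase gene ges-1 higher, at 746 ± 32.4 normalized counts in age-1 and 415 ± 10.5 in wild type (SD, n = 4 each; log2 fold change 0.84, adjusted p = 2.09e-12, limma). The peptide transporter gene pept-1 and gtl-1 of the same list were lower, at -0.79 and -0.68, and with the batch block 5 members were lower. For pept-1 the value was -1.04 in batches 1 and 2 alone and -0.54 in batches 3 and 4 alone (adjusted p = 0.0779, limma), and for gtl-1 it was -0.94 and -0.43 in the same order (adjusted p = 0.239 in batches 3 and 4, limma). Among embryo markers, cut-2, sdz-27 and zif-1 were lower, at -1.18, -0.79 and -0.16, and nhr-57 was higher, at 0.75. In batches 1 and 2 alone and batches 3 and 4 alone the values were -0.695 and -1.66 for cut-2 and -1.22 and -0.36 for sdz-27. The late embryo list, with cut-2, had 2 lower members under the batch block. The calls of spe-6, flp-5, cut-2, sdz-27 and zif-1 were each lost without at least 3 of the 8 libraries, one at a time, with adjusted p-values up to 0.15 in limma. The part of tissue makeup in the differences above was not tested.

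Immune genes were called in both directions, also within families. Of 52 immune effectors, 12 were higher and 8 lower, with a median of 0.29, and 3 C-type lectins are among them. Over all genes, 4.76% were called higher and 3.72% lower. Of the saposin-like genes, spp-1, spp-2 and spp-5 were higher, at 0.78, 1.63 and 0.31, and spp-10 and spp-17 lower, at -0.27 and -0.30. All but spp-2 were named after their values were seen, and spp-1 is on the DAF-16 induced list. In batches 1 and 2 alone and batches 3 and 4 alone the values were -0.36 and -0.18 for spp-10 and -0.21 and -0.385 for spp-17. The call of spp-17 was lost without library 2, 3 or 4 of age-1 or 1 or 3 of wild type (adjusted p up to 0.102, limma). The gene spp-2, of a protein family that opens bacterial membranes, had 629.5, 636, 665 and 606 normalized counts in age-1 and 178, 258, 155 and 245 in wild type, with no overlap. The log2 fold change of spp-2 was 1.63 ± 0.14 (adjusted p = 8.51e-11, limma). The antimicrobial peptide genes nlp-31 and nlp-29 of the epidermis had log2 fold changes of 1.51 and 1.27. For nlp-29 the age-1 libraries held 164, 174, 50.6 and 85.9 normalized counts against 30.1, 54.0, 47.2 and 44.9 in wild type, so that library 3 of age-1 lay within the wild type range. For nlp-29 the log2 fold change was 2.04 in batches 1 and 2 alone and 0.51 in batches 3 and 4 alone, where the adjusted p was 0.366 in limma, and its call was lost without batch 1. The infection response gene irg-5 was lower, at 7.76 ± 3.94 normalized counts in age-1 and 29.4 ± 6.96 in wild type (SD, n = 4 each), a log2 fold change of -1.87 ± 0.35 (adjusted p = 0.000269, limma). The value of irg-5 was -1.44 in batches 1 and 2 alone (adjusted p = 0.153, limma) and -2.30 in batches 3 and 4 alone.

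C-type lectins, sugar-binding proteins of which many answer infection, were called in both directions. Of 80 measured, 11 were lower and 5 higher, with a median of -0.12, where 3.72% of all genes were called lower and 4.76% higher. The share of lectins called higher was near that background. The lower lectins included clec-67 at -1.57, clec-10 at -1.47, clec-66 at -1.25 and clec-265 at -1.11. For clec-66 the age-1 libraries held 81.9, 75.6, 74.8 and 65.0 normalized counts and the wild type libraries 168, 181, 178 and 183.5, with no overlap (adjusted p = 8.25e-09, limma). For clec-67 there were 117, 135, 131 and 110 normalized counts in age-1 and 227, 589, 240.5 and 562 in wild type, where libraries 2 and 4 were the higher ones. The 5 higher lectins were clec-60, at 2.25, and clec-52, clec-83, clec-84 and clec-85, at 1.38, 0.29, 0.29 and 0.37, of which the last 4 were named after their values were seen. The level of clec-60 was low, with 26.0, 19.4, 3.67 and 3.096 normalized counts in age-1 and 0.861, 0.843, 0 and 4.99 in wild type. The groups overlapped, and its log2 fold change was 3.66 in batches 1 and 2 alone and 0.84 in batches 3 and 4 alone, where its call was lost (adjusted p = 0.732, limma). The call was also lost at a pseudocount of 5, and without library 1 or 2 of age-1 or 1, 2 or 3 of wild type (up to 0.141). The calls of clec-83, clec-84 and clec-85 were also lost without 2 to 4 single libraries, in each case library 3 of wild type among them, with adjusted p-values up to 0.145.

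Detoxification genes were called in both directions, where 4.76% of all genes were called higher and 3.72% lower. UDP-glucuronosyltransferases attach a sugar acid to small molecules, and 9 of 52 were lower and 3 higher, with a median of -0.16. Their share called higher was near the background. The gene ugt-64 had 368, 306, 413 and 384 normalized counts in age-1 and 1049, 1077, 1094 and 1197 in wild type, far apart, with a log2 fold change of -1.59 ± 0.14 (adjusted p = 1.78e-10, limma). The gene ugt-53 had a log2 fold change of -1.46, which was -1.92 in batches 1 and 2 alone and -0.99 in batches 3 and 4 alone, where the adjusted p was 0.242 in limma. The higher ones were ugt-6 at 1.17, ugt-66 at 1.31 and ugt-61, named after its values were seen, at 0.26. The calls of ugt-66 and ugt-61 were lost without single libraries, library 1 of age-1 and libraries 1 and 4 of wild type in both, and also library 3 of age-1 and 2 of wild type for ugt-61 (adjusted p up to 0.137 and 0.123, limma). Of 55 measured cytochrome P450 genes, which encode enzymes that oxidise small molecules, 4 were higher and 3 lower, with a median of -0.0047. These small counts lay near the background. The gene cyp-35B1, also on the DAF-16 induced list, averaged 40.03 ± 6.89 normalized counts in age-1 and 13.8 ± 4.403 in wild type (SD, n = 4 each), a log2 fold change of 1.5 ± 0.31 (adjusted p = 0.00101, limma). It was 0.98 in batches 1 and 2 alone, where the adjusted p was 0.312, and 2.02 in batches 3 and 4 alone (limma). The other higher members were cyp-34A2 at 0.90, cyp-32B1 at 0.76 and cyp-34A8 at 0.35, and the lower ones were cyp-34A10 at -1.55, cyp-35A3 at -1.39 and cyp-13A2 at -0.72. Of these, cyp-32B1, cyp-34A8 and cyp-13A2 were named after their values were seen. In batches 1 and 2 alone the values were 1.13 for cyp-34A2, 0.52 for cyp-32B1, -2.26 for cyp-34A10, -1.995 for cyp-35A3 and -1.10 for cyp-13A2. In batches 3 and 4 alone they were 0.66, 1.00, -0.83, -0.79 and -0.34 in the same order, and none of these 5 passed the test. The call of cyp-34A2 held without any single library. The others were lost without 1 to 6 of the 8 libraries, one at a time, among them library 3 of wild type for cyp-34A8, libraries 1 and 2 of age-1 for each of the 3 lower genes, and all but library 1 of age-1 and 2 of wild type for cyp-32B1 (adjusted p up to 0.205, limma). For cyp-34A10 these were also library 4 of age-1 and 2 and 4 of wild type, and for cyp-35A3 2 and 4 of wild type.

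Of 2 secreted protein families, 1 held called rises and the other called falls. Transthyretin-related genes encode small secreted proteins of a family expanded in nematodes. Of 45 measured, 15 were higher and none lower, with a median of 0.22, where 4.76% of all genes were called higher. The largest was ttr-26, with 147, 197, 118 and 116 normalized counts in age-1 and 37.0, 40.5, 37.3 and 53.7 in wild type, a log2 fold change of 1.74 ± 0.18 (adjusted p = 2.93e-09, limma). Its value was 2.11 in batches 1 and 2 alone and 1.37 in batches 3 and 4 alone. The genes ttr-5 and ttr-44 had values of 0.89 and 0.80, and ttr-44 is also on the DAF-16 induced list.

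Of 32 nematode-specific peptide genes, 12 were lower and none higher, with a median of -0.57, where 3.72% of all genes were called lower. Their summed level was 71.4 to 76.9 per M reads in age-1 against 137 to 165 in wild type. Log2 fold changes were positive in 9 of the 32, up to 3.54, and none of these was called. The called members were all of the nspc group, whose members are near copies of each other, so that single values are uncertain. The gene nspc-16 had 0, 0, 2.93 and 4.64 normalized counts in age-1 and 36.1, 42.2, 42.8 and 88.6 in wild type, and its fitted log2 fold change of -4.53 depends on the pseudocount. The genes nspc-18 and nspc-13 had log2 fold changes of -3.67 and -3.58 on the same scale. Among members with a mean of at least 100 the values were -1.84 for nspc-10, -1.42 for nspc-9 and -1.37 for nspc-14.

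Several other genes were among the largest changes. The gene scb-1, which is known for its part in the response to bleomycin, had 242, 242, 227 and 252 normalized counts in age-1 and 72.3, 84.3, 78.0 and 58.7 in wild type, a log2 fold change of 1.71 ± 0.11 (adjusted p = 3.22e-14, limma). The gene dmd-9, which encodes a transcription factor with a DM domain, had 598, 551, 587 and 571 normalized counts in age-1 and 191, 183, 188 and 172 in wild type, at 1.65 ± 0.07 (adjusted p = 9.37e-19, limma). Both genes had tight groups that lay far apart.

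The acid sphingomyelinase gene asm-3, whose product makes ceramide, averaged 1058 ± 84.1 normalized counts in age-1 and 349 ± 54.5 in wild type (SD, n = 4 each). Its log2 fold change was 1.61 ± 0.36 (adjusted p = 0.00271, limma), a call lost without batch 2. Other large rises had log2 fold changes of 1.91 for sdz-24, 1.42 for cpg-7, a chondroitin proteoglycan gene, 1.26 for pud-4, which has a near-identical copy, 1.22 for catp-3, a cation ATPase gene, and 1.16 for pgph-3. The log2 fold change of catp-3 was 1.59 in batches 1 and 2 alone and 0.86 in batches 3 and 4 alone, where its age-1 libraries held 144 and 389 normalized counts. Among genes known only by a sequence name, T10D4.6 showed the same split between libraries, with 1585, 1569, 630 and 527 normalized counts in age-1 and 366, 312, 356 and 332 in wild type. Its log2 fold change was 1.48 ± 0.33 (adjusted p = 0.00214, limma), 2.22 in batches 1 and 2 alone and 0.74 in batches 3 and 4 alone. The call was lost without batch 2.

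The lowest adjusted p of all genes was that of maph-1.2, a homolog of microtubule-associated protein 1 with near-identical copies. It had 1537, 1417, 1282 and 1457 normalized counts in age-1 and 6121, 6687, 6139 and 6190 in wild type, a log2 fold change of -2.14 ± 0.07 (adjusted p = 1.75e-23, limma). Its relatives maph-1.1 and maph-1.3 were called higher in age-1, with log2 fold changes of 0.34 and 0.65. They were looked up after their values were seen and are not counted among the named genes. Whether reads were shared differently among these genes in the 2 genotypes was not tested. The gene T22B7.7, on chromosome X at 5651865 to 5654074 on the reverse strand, had 0, 4.61, 2.199 and 11.6 normalized counts in age-1 and 296, 250, 309 and 306 in wild type. It was near absent in age-1, and its log2 fold change was -6.22 ± 0.46 on the scale with a pseudocount of 1 and -5.57 without library 1 of age-1. Other falls by sequence name were T04F3.1 at -1.66 ± 0.09 and ZK6.11 at -1.57 ± 0.20. The gene rhy-1, which encodes a regulator that restrains the hypoxia factor HIF-1, averaged 104 ± 13.4 normalized counts in age-1 and 218 ± 26.4 in wild type (SD, n = 4 each), a log2 fold change of -1.06 ± 0.22 (adjusted p = 0.000985, limma). The genes hpo-6, at -1.1, and the collagen gene col-135, at -1.02, completed the named falls, and col-135 was lost without batch 2.

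The remaining named genes with unequal pairs of batches were mostly genes of small changes. Of those described first above, the value in batches 1 and 2 alone was -0.42 for sgk-1, 0.78 for ins-27 and 0.83 for gst-4, and in batches 3 and 4 alone it was -0.26, 1.43 and 0.55 in the same order. Among the larger changes, sdz-24 had 1.51 and 2.31, nspc-14 had -1.05 and -1.69 and col-135 had -1.25 and -0.80 in the 2 pairs. In the muscle list cpn-3 had 0.42 and 0.26 and unc-60 had 0.19 and 0.36, and of the germline and embryo markers spe-6 had 0.98 and 0.44 and zif-1 had -0.23 and -0.085. For the lectin genes the pairs were 0.22 and 0.35 for clec-83, 0.23 and 0.35 for clec-84 and 0.47 and 0.28 for clec-85. The pairs were -0.13 and -0.24 for far-1, -0.16 and -0.078 for eif-3.C and -0.34 and -0.17 for vars-1. Batches 1 and 2 are the first value in each pair.

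The same genotype contrast on repo-1 RNAi used 8 libraries that the empty vector contrast did not, and it gave a like picture. On RNAi, 1462 of 12327 genes (11.9%) were called, 899 (7.29%) higher and 563 (4.57%) lower in age-1. That count was 2670 without library 4, 788 without library 1 and 902 without library 2 of the age-1 RNAi group. Of the 587 genes called higher on empty vector, 571 (97.3%) were positive on RNAi and 413 were called higher there, which is 70.4% of the empty vector list and 45.9% of the RNAi list. Of the 458 called lower, 438 (95.6%) were negative and 189 were called lower, or 41.3% and 33.6% of the lists. Over all genes tested, 49.8% of log2 fold changes were positive on RNAi. The median log2 fold change of the higher genes was 0.38 on RNAi and 0.44 on empty vector, and that of the lower genes was -0.27 and -0.47; genes chosen for their change in one set of libraries tend to lie nearer 0 in another. The gene F15D4.5, named after its values were seen, was the only gene called in opposite directions, at -0.54 on RNAi and 0.57 on empty vector. Its empty vector call was lost without any 1 of 6 libraries, all but 2 and 3 of age-1 (adjusted p up to 0.153, limma).

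Most of the largest changes were also seen on RNAi. The log2 fold change was 2.19 on RNAi and 2.13 on empty vector for lea-1, 2.90 and 3.52 for ftn-1, 2.46 and 2.83 for mtl-1, and 1.64 and 2.43 for nnt-1. It was -1.995 and -2.14 for maph-1.2, -2.50 and -2.14 for dod-24 and 1.75 and 1.71 for scb-1. The DAF-16 induced list had 32 of 52 members higher and none lower on RNAi, with a median of 0.56, where 7.29% of all genes were called higher.

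A test of the difference between both contrasts called 1 gene of 12327 (0.00811%), while 695 had an unadjusted p under 0.05. The gene was drd-50, named because it was the one called. It had 32.4, 34.3, 41.9 and 61.5 normalized counts in age-1 on RNAi against 46.2, 58.3, 52.1 and 50.4 in wild type on RNAi. On empty vector it had 7.80, 9.22, 2.199 and 6.97 in age-1 against 25.8, 49.8, 46.1 and 51.2 in wild type. Its log2 fold change was -0.32 on RNAi and -2.63 ± 0.26 on empty vector, and the difference was 2.31 ± 0.37 (adjusted p = 0.00549, limma). On empty vector it was -1.96 in batches 1 and 2 alone and -3.30 in batches 3 and 4 alone. No gene was called without batch 4, 3 genes were called without library 3 of age-1 on empty vector and 2 without library 1 of wild type on RNAi.

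**Figure D4:**
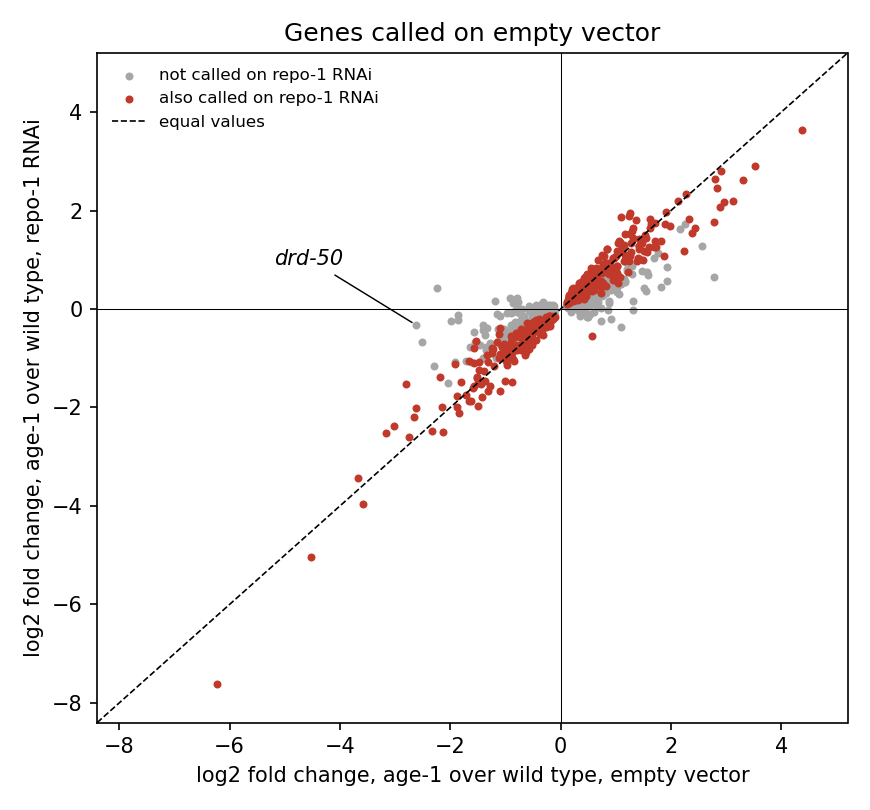
Log2 fold changes, age-1 over wild type, of the 1045 genes called on empty vector, on repo-1 RNAi (vertical axis) and on empty vector (horizontal axis), 1 point a gene, with a dashed line of equal values. Red points are also called on RNAi. Nearly all points lie in the 2 quadrants of equal sign, and drd-50 lies near 0 on the vertical axis.

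Set directly against the other long-lived mutants on empty vector, age-1 differed in many genes. Against eat-2, 7091 genes (57.5%) were called, 52.1% of them higher in age-1, a share of 62.7% under quantile normalization. Against raga-1 there were 5241 calls (42.5%) and against clk-1 7029 (57%). These comparisons share the age-1 libraries, so their values are given side by side only.

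Some genes were lower in age-1 than in each of the other mutants as well. The log2 fold change of maph-1.2 was -1.98 against eat-2, -1.94 against raga-1 and -1.96 against clk-1, with adjusted p-values of 6.57e-23, 1.76e-22 and 3.57e-23 in limma. That of T04F3.1 was -1.68, -1.67 and -1.54 in the same order. The mean level of T04F3.1 was 508 ± 68.1 normalized counts in age-1, 1610 ± 142 for raga-1, 1623 ± 152 for eat-2, 1465 ± 22.3 for clk-1 and 1595 ± 120 for wild type (SD, n = 4 each). The gene nspc-13 had log2 fold changes of -3.84, -3.17 and -3.88 and dod-23 of -1.24, -1.27 and -1.32. The rise of lea-1 was 1.96 against eat-2, 1.73 against raga-1 and 0.80 against clk-1.

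For other genes, age-1 lay beside the other mutants. The gene scb-1 averaged 241 ± 10.05 normalized counts in age-1, 247 ± 22.3 for raga-1, 241 ± 13.5 for eat-2, 352 ± 19.2 for clk-1 and 73.3 ± 10.9 for wild type (SD, n = 4 each). Its log2 fold change was 0.00 ± 0.11 against eat-2 and -0.04 ± 0.11 against raga-1, and these did not pass the test. The gene spp-2 was likewise at -0.03 ± 0.14 against eat-2 and 0.15 ± 0.14 against clk-1. For dmd-9, age-1 stood with clk-1, at 0.11 ± 0.07 (adjusted p = 0.213, limma), and above eat-2, at 1.61, and raga-1, at 1.02. The gene T22B7.7 averaged 4.6 ± 5.04 normalized counts in age-1, 1494 ± 285 for raga-1, 54.7 ± 11.5 for eat-2, 101 ± 5.44 for clk-1 and 290 ± 27.5 for wild type (SD, n = 4 each), so that age-1 was the lowest and raga-1 the highest of the 5. The DAF-16 induced list had 24 members higher and 10 lower in age-1 against eat-2 (median log2 fold change 0.19), where 30% of all genes were higher and 27.6% lower. Against raga-1 it had 16 and 12 (median 0.13), where 23.5% of all genes were higher and 19.1% lower. Against clk-1 it had 19 and 16 (median -0.0036), where the shares of all genes were 28.7% and 28.3%.

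**Figure D5:**
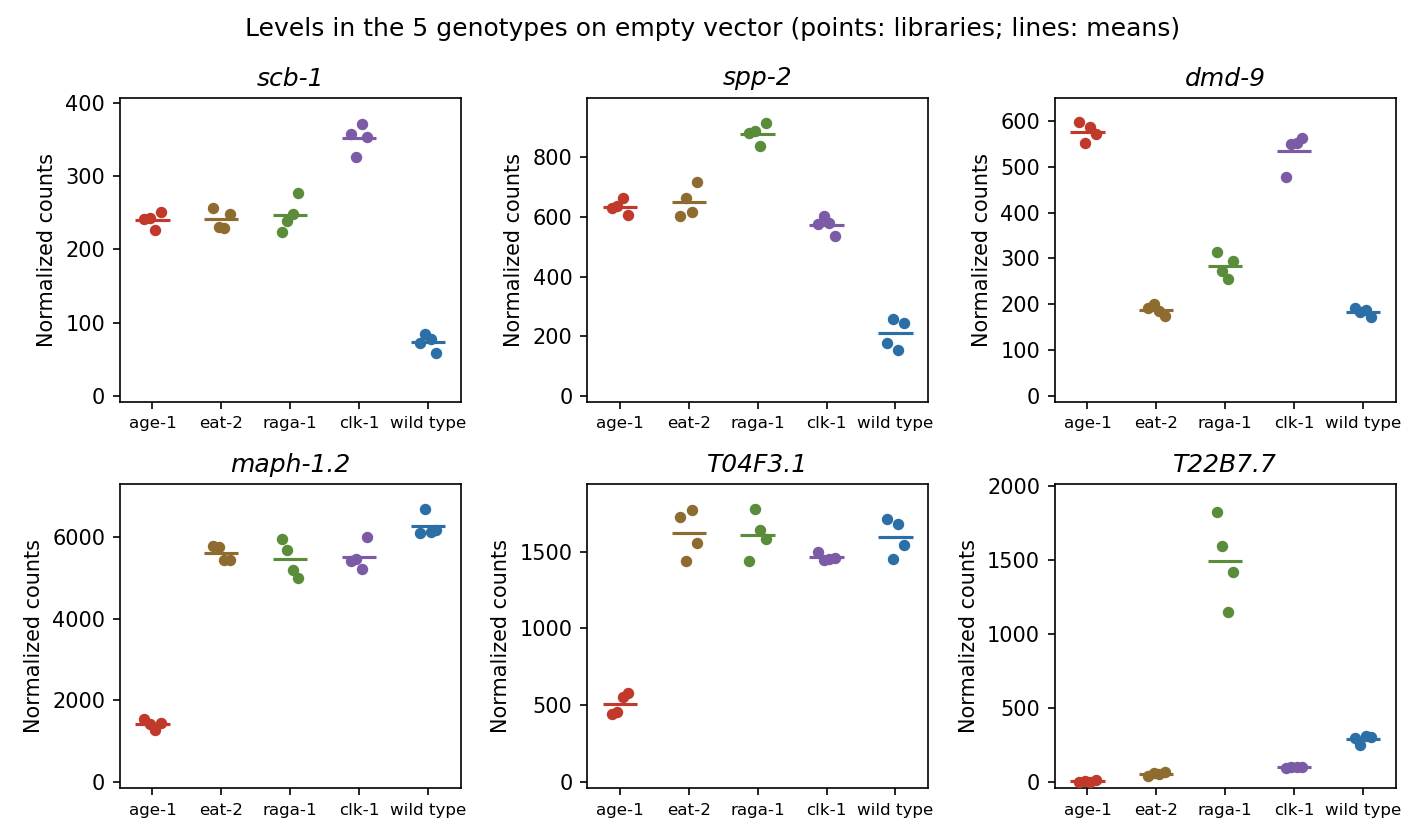
Normalized counts of 6 genes in age-1, eat-2, raga-1, clk-1 and wild type on empty vector, 1 point a library and a line at each mean (n = 4 each). In scb-1 and spp-2 all 4 mutants lie above wild type, in dmd-9 age-1 and clk-1 are the highest, in maph-1.2 and T04F3.1 age-1 alone is low, and in T22B7.7 age-1 is near 0 while raga-1 is the highest.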

How the data were processed

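The authors deposited 1 table of normalized signal per gene for 20956 genes and 40 libraries, in which counts had been scaled by a size factor for each library. Per the labels' protocols, the kits were Qiagen miRNeasy for RNA and Kapa stranded mRNA HyperPrep for libraries. The submitters' processing notes list DESeq2, FastQC 0.11.8, MultiQC, Salmon 0.14.2 and STAR, with no role for each, and build WBcel235. Every column was matched to a library by its name. Whole reads were recovered from the lowest value above 0 in a library, and 100% of values came out within 0.01 of a whole number. In 2 RNAi columns, age-1 library 4 and clk-1 library 1, that value was close to 1, so this check said little there.

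The main test used log2(value + 1) and limma 3.58.1 under R 4.3.3, with a trend of variance on level. Genes needed a mean of 10 or more across the 40 libraries, which 12327 passed. The model held 1 mean for each of the 10 groups of genotype and treatment, so all groups shared 1 estimate of the spread. Benjamini-Hochberg adjustment ran over all genes within each of 6 contrasts, and a gene was called at an adjusted p under 0.05. Errors of log2 fold changes are standard errors. Fold changes understate the change of low genes on this scale. On the recovered reads, edgeR 4.0.16 called 1083 genes with TMM scaling and 1085 with RLE scaling, and DESeq2 1.42.0 called 1246. Scripts were tested on simulated data. Exact 0 values are kept as 0.

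Gene lists were written from general knowledge. Members and lists were chosen with earlier results of these data known. Named genes were the 15 largest called rises and 15 largest called falls on empty vector with a mean of at least 100, groups that did not overlap and a locus name, the 5 largest each way with a sequence name, and up to 4 called members of a list. The gene called in the test of the difference between both contrasts, age-1 and repo-1 were named too. All genes of the insulin, superoxide dismutase and catalase, vitellogenin and small heat shock lists could be named. Genes outside the rule are marked in the text as named after their values were seen. Positions come from the Ensembl 115 annotation of WBcel235.

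The labels give the replicate number as the batch, so equal numbers pair libraries across groups. Residual correlations of equal-numbered age-1 and wild type libraries were 0.052, -0.137, -0.023 and -0.040. Alternatives were the batch block, other pseudocounts, filters and scaling, array weights, count tests and libraries left out. Promoter sequences were not analysed here, and 1 gene of the insulin pathway list is not reported here.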

Additional observations from a re-analysis of the deposited data

Results flagged for a closer look

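Of 318 groups of 4 libraries examined for the named genes on empty vector, 19 held 1 library far from the other 3 by Dixon's criterion, and chance flags about 1 in 20 groups. In age-1 library 1, dod-22 had 20.81 normalized counts against 11.61 to 11.98 in the other age-1 libraries, gpd-3 had 10807 against 9524 to 9631, and nhr-57 had 67.63 against 53.4 to 55.3. In age-1 library 2, enpl-1 had 12691 against 12000 to 12061, ges-1 had 697.7 against 758 to 766, and nspc-10 had 53.46 against 44.1 to 45.5. Age-1 library 3 was the low one for 3 yolk genes, with 361444 for vit-3 against 399002 to 404182, 300106 for vit-4 against 334355 to 337207, and 461772 for vit-5 against 505905 to 509566. These 3 genes are close copies and share reads. In the same library mrpl-9 had 632 against 593 to 597, and cyp-34A10 had 52.05 against 5.53 to 11.61.

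In wild type, library 4 was the high one for 5 genes. It had 821.3 for mrpl-9 against 706 to 714, 229.7 for nspc-10 against 149 to 160, 88.62 for nspc-16 against 36.1 to 42.8, 888.7 for repo-1 against 815 to 826, and 129.8 for sod-4 against 93.8 to 98.8. Wild type library 2 had 6687 for maph-1.2 against 6121 to 6190, and library 3 had 12.08 for mtl-1 against 17.5 to 18.5. Wild type library 1 had 5332 for spp-5 against 5660 to 5706.

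The effect of age-1 on drd-50 differed between the treatments, with a log2 difference of 2.31 between the effect on repo-1 RNAi and the effect on empty vector, the only one of 12327 genes for which limma's test of this difference passed.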

How the results depend on the processing

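The 1045 calls between age-1 and wild type on empty vector became 1638 with array quality weights and 453 in batches 3 and 4 alone, and ranged from 561 to 1313 when a batch or a library was left out. With the batch number as a block there were 1117 calls, of which 1026 were shared with the main test, and under the other alternatives run the count stayed within 1.5 times. Shared calls were 514 of the 1045 in batches 1 and 2 alone and 385 in batches 3 and 4 alone. On repo-1 RNAi the 1462 calls became 2303 with array weights, 642 with the spread taken from the 8 compared libraries and 402 in batches 3 and 4 alone, and ranged from 605 to 2670 on leaving out a batch or a library. The difference between treatments gave 56 genes with array weights, 30 in batches 1 and 2 alone, 5 in batches 3 and 4 alone, 0 with the spread from its own 16 libraries, and 0 to 4 with libraries left out. Against raga-1 there were 3189 calls in batches 1 and 2 alone. The cause of these moves was not tested. Blocking by batch changed the calls of daf-2, vars-1 and the list members given above, and of no other named gene. Among the other values recomputed, for named genes, lists and shares, 4609 stayed the same. For a named gene this meant that its call, or the lack of one, was kept. Counts had to stay within 1.5 times, and shares and list medians within limits of their own, and 254 such values moved. Among values of named genes, 395 lost a call with the same direction, 12 gained one and none reversed.

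The precision is limited by 4 libraries a group and by low counts, as in clec-60 and nspc-16, where single libraries held few reads.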
